A study of Mus musculus with 12 samples.

Results

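Teneurins, latrophilins and FLRT proteins are cell-surface proteins that bind one another across the synaptic cleft. Their 10 mouse genes, *Tenm1* to *Tenm4*, *Adgrl1* to *Adgrl3* and *Flrt1* to *Flrt3*, were picked by symbol from the 37991 genes counted in hippocampal poly(A) RNA-seq libraries. Ensembl gene IDs were matched to current symbols, since older annotation calls the teneurins *Odz* and the latrophilins *Lphn*. The 10 symbols correspond to 11 gene IDs, because *Flrt3* has a further ID whose exons all lie within those of the main one and which held 0 reads in every library. All 10 genes passed the expression filter, and each was read from its main ID.

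The libraries came from 12 mice of the C57BL/6N strain, aged 6 to 7 months, of which 6 are labelled wild type (*Gadd45a*-WT) and 6 *Gadd45a*-KO. The animals were siblings from crosses of heterozygotes, and every mouse of both labels had been trained in the passive avoidance (PA) paradigm 1 h before the hippocampi were taken, so that no untrained level was measured. The knockout carries a neomycin cassette in place of the first 3 of the 4 *Gadd45a* exons in all cells. The comparison asks whether the reads counted on a gene's annotated exons in hippocampal poly(A) RNA differ between the labels after training. Counts per gene do not separate a change in mRNA level from a change in where reads lie along the transcript, which was not tested.

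Latrophilins are adhesion G protein-coupled receptors, mostly on the postsynaptic side, with a long extracellular part that binds teneurins and FLRT proteins. Teneurins are very large single-pass proteins that bind latrophilins and also each other, and they guide which hippocampal neurons connect. FLRT proteins carry leucine-rich repeats and bind latrophilins as well as the netrin receptors of the UNC5 family. In the hippocampus, *Adgrl2* and *Adgrl3* are known for acting at different inputs of the same CA1 pyramidal cells, and *Tenm3* for matching CA1 with its target region in the subiculum.

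The reads on *Gadd45a* itself were higher in the libraries labelled *Gadd45a*-KO, opposite to what a loss of the whole gene would give. *Gadd45a* had 102 to 154 reads per library labelled *Gadd45a*-WT and 946 to 1179 per *Gadd45a*-KO library, with 3.06 as the log2 fold change (SE 0.09, adjusted p = 1.33e-10, quasi-likelihood test of edgeR, adjusted after Benjamini-Hochberg). Counts per gene do not separate the deleted exons from the remaining one, and whether libraries had been exchanged between the labels was not tested. The non-coding gene *E230016M11Rik*, which overlaps *Gadd45a* on the other strand, went the opposite way (log2 fold change -4.40, SE 0.17, adjusted p = 2.40e-09 from the same edgeR test). It had 147 to 194 reads per *Gadd45a*-WT library and only 4 to 14 per *Gadd45a*-KO library. Libraries are therefore named by their labels throughout, and each direction given below is that of the library labelled *Gadd45a*-KO against the library labelled *Gadd45a*-WT, and would turn if the labels were exchanged.

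Between 44594261 and 55540601 reads per library fell on genes, and the total for a member over all 12 libraries ran from 6297 reads (*Flrt1*) to 348819 (*Adgrl1*). The share of reads on no annotated gene was 14.4 to 15.8% for *Gadd45a*-WT and 13.0 to 14.3% for *Gadd45a*-KO. Libraries also differed in marker genes of hippocampal regions and of neighbouring tissue. All 7 thalamic markers were higher in *Gadd45a*-KO replicates 2 and 3 than in every other library, and their summed level was 301 and 475 CPM (read counts scaled to library size) there, against 88.8 to 131 CPM for *Gadd45a*-WT and 101 to 135 CPM in the other *Gadd45a*-KO libraries. None of these 7 markers was at 0 in any library. Of the CA1 markers *Pou3f1* has 2 gene IDs, and the ID used was close to 0 throughout, so that the CA1 sum rests on the other 4 genes. Whether reads fitting both IDs were left out of the counts was not tested. In tissue samples such as these, fewer cells of a type and less RNA per cell cannot be told apart.

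*Adgrl1*, encoding the receptor latrophilin-1, was the most abundant member when reads were scaled to exon length. Its level in the *Gadd45a*-WT libraries was 68.0 ± 2.75 CPM per kb of exon (SD, n = 6). *Tenm2*, encoding teneurin-2, came next with 15.1 ± 0.824 CPM per kb, and the libraries of the pair did not overlap. *Tenm3* (8.47 ± 0.726), *Flrt2* (8.10 ± 0.873), *Flrt3* (7.56 ± 0.750), *Adgrl2* (7.39 ± 1.80), *Tenm4* (5.59 ± 1.12) and *Adgrl3* (5.28 ± 0.484 CPM per kb, SD, n = 6 each) followed. Neighbours among these 6 overlapped under both labels. The level of *Flrt3* may be too low, since reads shared with its further ID are not counted while the full exon length was used. *Tenm1* (1.97 ± 0.160) and *Flrt1* (1.78 ± 0.199 CPM per kb) were lowest, overlapped with each other and lay below all the rest. The study reports read coverage biased towards the 3′ end of mRNAs, and the levels per kb were not corrected for it.

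**Figure D1:**
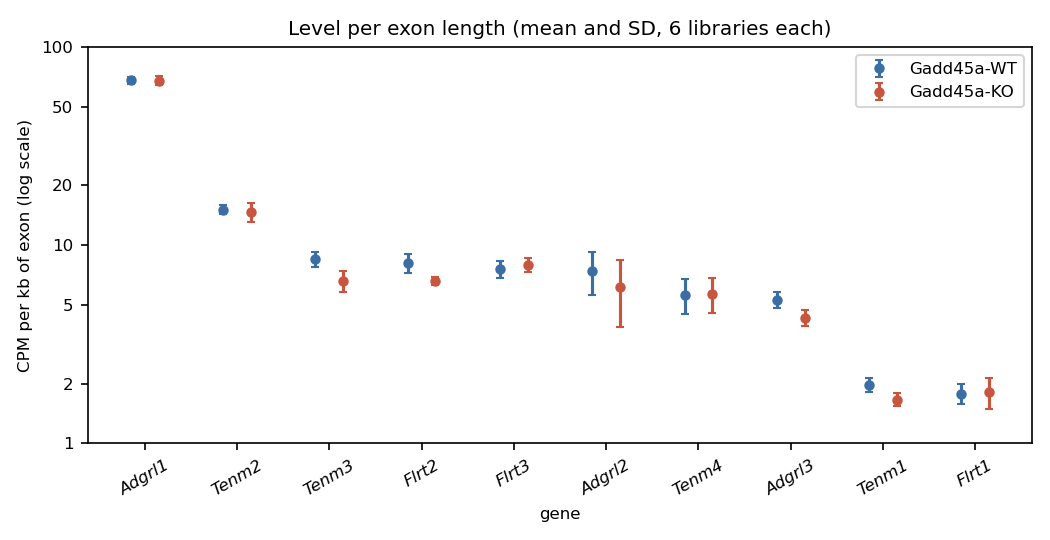
Level per exon length, in CPM per kb on a log scale, of the 10 genes for the libraries labelled *Gadd45a*-WT and *Gadd45a*-KO; points are means and bars the SD of 6 libraries. *Adgrl1* stands at 68.0 and *Flrt1* at 1.78 CPM per kb in *Gadd45a*-WT.

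Within each family 1 or 2 genes supplied most of the length-scaled reads. *Adgrl1* held 84.3 ± 2.66% of the latrophilin level in *Gadd45a*-WT and 86.7 ± 2.85% in *Gadd45a*-KO (SD, n = 6 each). Among the teneurins *Tenm2* held 48.6 ± 1.5% and 51.3 ± 1.75% in the same order of labels. *Flrt2* and *Flrt3* held 46.4 ± 3.46% and 43.4 ± 3.18% of the FLRT level in *Gadd45a*-WT, where the share of *Flrt3* may be too low for the same reason. With the longest annotated transcript as the length instead, *Adgrl3* stood at 10.3 ± 0.946 CPM per kb in *Gadd45a*-WT, level with *Tenm3* (10.3 ± 0.880) and *Adgrl2* (10.3 ± 2.51), so that the middle of the order depends on which annotated exons are used.

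At 1% false discovery rate (FDR), the threshold of the study, 0 of the 10 genes were lower and 0 were higher in *Gadd45a*-KO by edgeR's quasi-likelihood test. Of the 16399 genes tested, 2.62% were lower and 0.0244% higher at that rate. *Tenm1*, *Tenm3*, *Adgrl3* and *Flrt2* were just outside it, with adjusted p between 0.0128 and 0.0215. At 5% FDR these 4 of 10 genes were lower and 0 higher, against 4.43% and 0.122% of all genes. The same 4 had an unadjusted p under 0.05, against 9.35% of all genes in the lower direction, and no member had one in the higher direction, against 4.34%. DESeq2 called the 4 genes lower at 1% FDR, against 3.77% of the genes to which it gave an adjusted p. In none of the 10 genes did the libraries of the labels separate fully, which 3.12% of all genes did with *Gadd45a*-KO lower and 0.183% with *Gadd45a*-KO higher. The median log2 fold change was -0.15 over the 10 members and 0.00 over all genes tested.

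**Figure D2:**
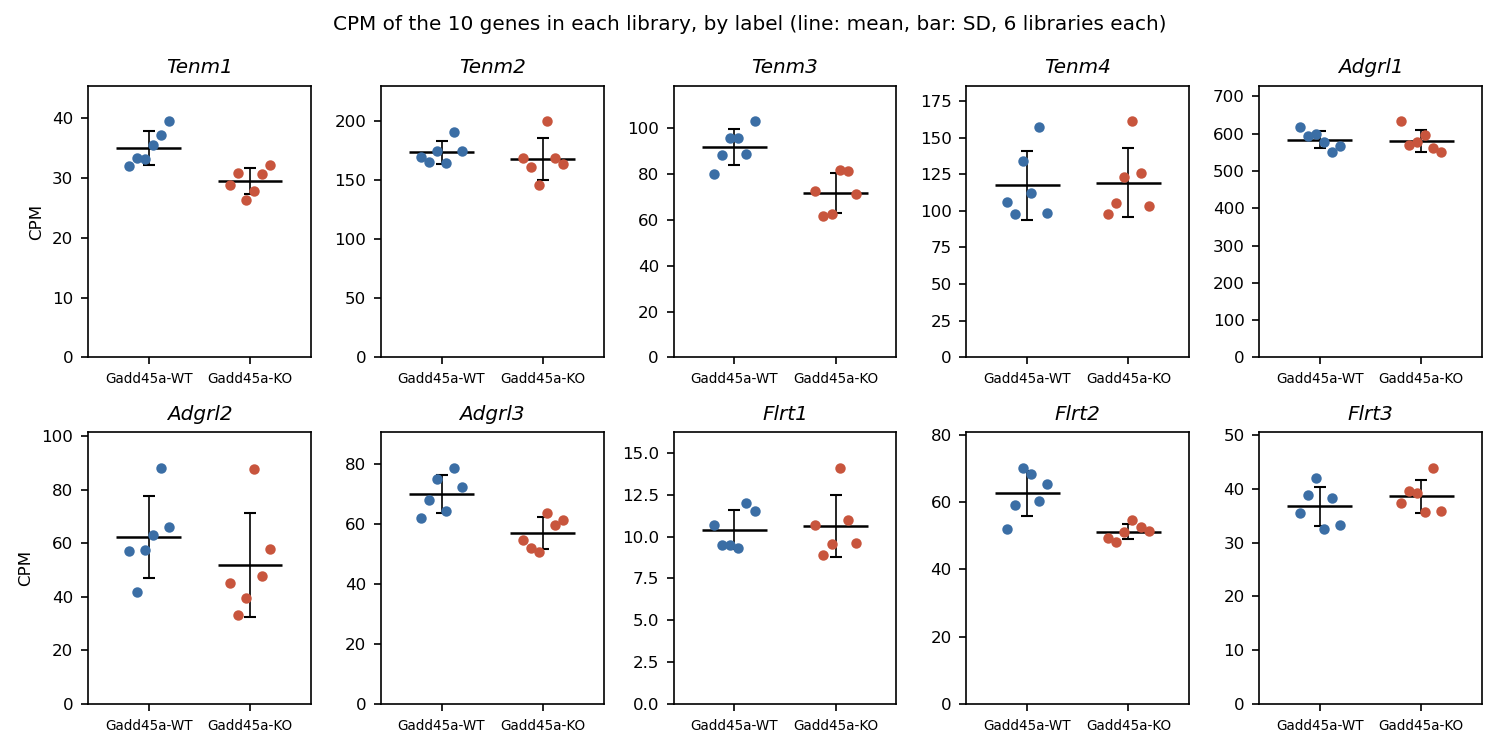
CPM of each of the 10 genes in each library, by label; every point is a library, horizontal lines are means and bars the SD of 6 libraries. For *Tenm3* the *Gadd45a*-KO libraries lie between 61.9 and 81.8 CPM and the *Gadd45a*-WT libraries between 80.0 and 103 CPM.

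*Tenm3* (ENSMUSG00000031561; NCBIM37 chromosome 8, 49313036 to 49760044, minus strand) had the largest estimated difference of the 10 with all 12 libraries and no covariate. In the order of replicates 1 to 6, *Gadd45a*-WT libraries had 80.0, 88.3, 95.6, 95.8, 88.9 and 103 CPM, and those labelled *Gadd45a*-KO 72.5, 61.9, 62.6, 81.8, 81.4 and 71.2 CPM. All 6 *Gadd45a*-KO libraries were below the *Gadd45a*-WT mean and 4 were below every *Gadd45a*-WT library, while replicates 4 and 5 reached just above the lowest of them. The log2 fold change was -0.35 (SE 0.08, 95% confidence interval -0.52 to -0.19, adjusted p = 0.0128, edgeR), a level 21.8% lower that missed 1% FDR. Its lowest values were in the 2 libraries with high thalamic markers, and without them the log2 fold change was -0.26 (adjusted p = 0.0556, edgeR).

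The only promoter of a member with the cAMP response element letters TGACGTCA was that of *Tenm3*. It is shown because this element is a known binding sequence of the factor CREB, which acts in learning. The letters read the same on both strands, and the window runs from 250 bases before to 50 after each RefSeq start site. It was read for 9 of the 10 genes, in 12 promoters, and 1.79% of all 32851 promoters of this length hold the element. The stretch below, from RefSeq on GRCm38.p6 (chr8:48674735-48674764, minus strand), has the element in capitals, beginning 63 bases before the start site.
*Tenm3* promoter: gatgctttcgcTGACGTCAtgccaaccttt

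*Flrt2* (ENSMUSG00000047414; chromosome 12, 96930436 to 97023425, plus strand), which encodes a ligand of latrophilins and UNC5 receptors, was the FLRT gene with a difference. Its *Gadd45a*-WT libraries had 51.9, 59.2, 70.1, 68.3, 60.2 and 65.3 CPM, and its *Gadd45a*-KO libraries 49.2, 48.1, 51.1, 54.5, 52.4 and 51.5 CPM. The *Gadd45a*-KO values were close together and overlapped only with *Gadd45a*-WT replicate 1. The log2 fold change was -0.29 (SE 0.06, 95% confidence interval -0.42 to -0.16, adjusted p = 0.0130, edgeR), or 18.2% lower. Leaving out 1 library at a time gave adjusted p from 0.00145, without *Gadd45a*-WT replicate 1, to 0.0454, without *Gadd45a*-KO replicate 1 (edgeR). Without the libraries with high thalamic markers the log2 fold change was -0.27 with an adjusted p of 0.0754 (edgeR).

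*Adgrl3* (ENSMUSG00000037605; chromosome 5, 81449163 to 82254158, plus strand), encoding latrophilin-3, had 62.0, 68.0, 75.0, 64.5, 78.8 and 72.5 CPM in *Gadd45a*-WT. In *Gadd45a*-KO it had 54.7, 51.9, 50.8, 63.9, 59.8 and 61.3 CPM. Of the *Gadd45a*-KO libraries 5 lay below every *Gadd45a*-WT library and only replicate 4 overlapped. The log2 fold change was -0.30 (SE 0.07, 95% confidence interval -0.44 to -0.15, adjusted p = 0.0190, edgeR), 18.7% lower. It was -0.23 without the libraries with high thalamic markers (adjusted p = 0.115, edgeR), and without *Gadd45a*-WT replicate 3, 5 or 6 or *Gadd45a*-KO replicate 1 or 2 the adjusted p was 0.0532 to 0.0639 (edgeR).

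Since the study concerns the stability of mRNA, the longest annotated 3′UTR of each member was searched for the AU-rich nonamer TTATTTATT, a sequence known from short-lived mRNAs, on the transcript strand. Within these annotated 3′UTRs, *Adgrl3* was the only member that held it, in a 3′UTR of 5563 nucleotides. The study reports 3′UTRs that run past the annotated end for many of its lower genes. Sequence beyond the annotated ends was not searched in any member. Of all 20007 genes with an annotated 3′UTR, 6.51% hold the nonamer, and of those with a 3′UTR in the length range of the members 9.83% do. The site lies 170 bases before the end of the transcript with this 3′UTR, within NCBIM37 chr5:82225471-82225500 on the plus strand. The gene as a whole is annotated further, to 82254158. Its longest transcript has 6793 nucleotides and its longest coding part 4740, so the transcript with this 3′UTR cannot hold the full coding part. The nonamer is in capitals below.
*Adgrl3* 3′UTR: acaggaaaatTTATTTATTtgacaggattt

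*Tenm1* (ENSMUSG00000016150; chromosome X, 39881043 to 40782303, minus strand) was the least abundant teneurin. It had 31.9, 33.3, 33.1, 35.4, 37.1 and 39.4 CPM in *Gadd45a*-WT and 28.8, 30.8, 26.3, 27.8, 30.6 and 32.2 CPM in *Gadd45a*-KO. Only *Gadd45a*-KO replicate 6 reached the *Gadd45a*-WT range. The log2 fold change was -0.25 (SE 0.06, 95% confidence interval -0.38 to -0.13, adjusted p = 0.0215, edgeR), or 16.1% lower. Without *Gadd45a*-WT replicate 4, 5 or 6 or *Gadd45a*-KO replicate 1, 3 or 4 the adjusted p was 0.0531 to 0.0764 (edgeR). Without the libraries with high thalamic markers the log2 fold change was -0.23 (adjusted p = 0.0794, edgeR). Among the 4 genes it moved most with the treatment of transcript length, to -0.10 (adjusted p = 0.529, edgeR) with a smooth offset for exon length.

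The same length offset left *Tenm3* at -0.27 (adjusted p = 0.0672), *Flrt2* at -0.24 (0.0513) and *Adgrl3* at -0.18 (0.180, all edgeR). With the summed CA1, dentate gyrus and thalamus markers as covariates, *Tenm3* was at -0.29 (adjusted p = 0.0472), *Flrt2* at -0.31 (0.0295), *Adgrl3* at -0.25 (0.0451) and *Tenm1* at -0.17 (0.326, all edgeR). With 1 surrogate variable none of the 4 was lower at 5% FDR (*Tenm1* -0.21, adjusted p = 0.115; *Tenm3* -0.27, 0.0578; *Adgrl3* -0.22, 0.0862; *Flrt2* -0.28, 0.0503, all edgeR). All 4 stayed below 0 under every alternative run, and the part of tissue composition and of transcript length in the differences was not tested further.

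**Figure D3:**
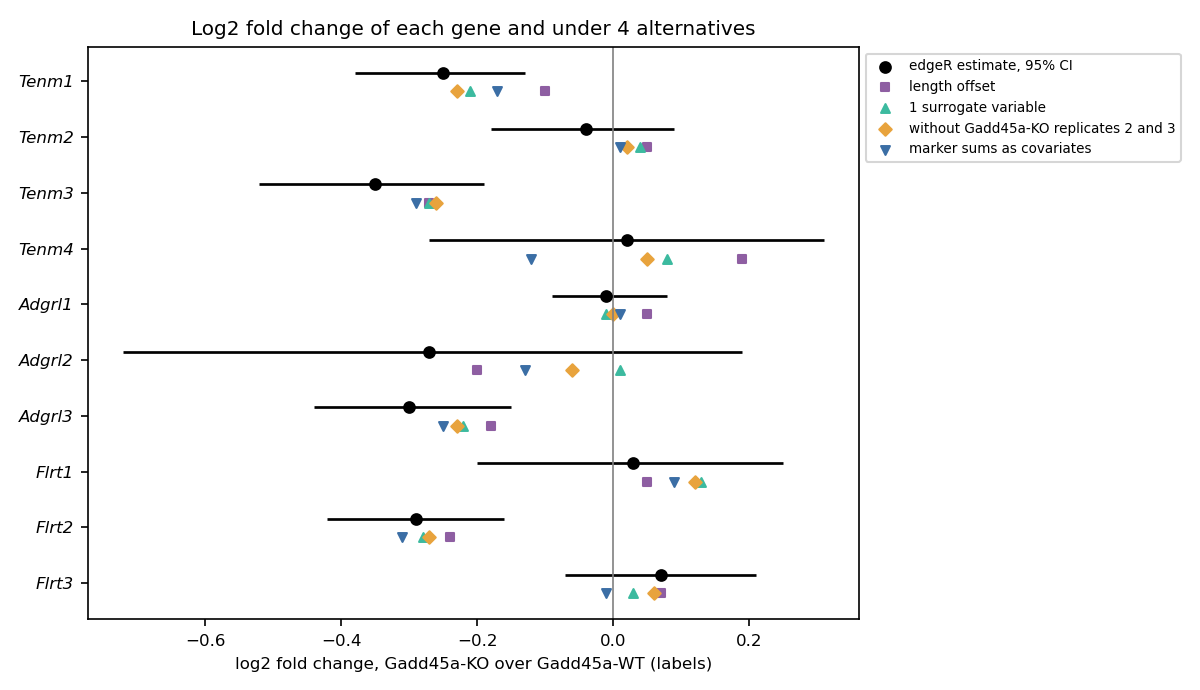
Log2 fold change of *Gadd45a*-KO over *Gadd45a*-WT for each gene; black points are the edgeR estimates with their 95% confidence intervals, coloured symbols the estimates under 4 alternatives. *Tenm1*, *Tenm3*, *Adgrl3* and *Flrt2* have intervals below 0, from -0.52 at the lowest to -0.13 at the highest.

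The remaining 6 genes had confidence intervals that include 0. *Adgrl1* (chromosome 8, 86424004 to 86465853, plus strand) was the most evenly expressed, with 552, 585 and 618 CPM as the lowest, median and highest *Gadd45a*-WT values and 552, 573 and 633 CPM for *Gadd45a*-KO. The labels overlapped throughout, and its interval, -0.09 to 0.08 on the log2 scale, was the narrowest. *Tenm2* (chromosome 11, 35820158 to 37049466, minus strand) had 165, 172 and 191 CPM in *Gadd45a*-WT and 146, 167 and 200 CPM in *Gadd45a*-KO. Its log2 fold change was -0.04, with an interval of -0.18 to 0.09.

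*Flrt3* (chromosome 2, 140476650 to 140497205, minus strand) had 32.6, 36.9 and 42.1 CPM in *Gadd45a*-WT against 35.7, 38.4 and 43.9 CPM in *Gadd45a*-KO, with an interval of -0.07 to 0.21. *Flrt1* (chromosome 19, 7166504 to 7180219, minus strand) had 9.29, 10.1 and 12 CPM against 8.90, 10.1 and 14.1 CPM, and its interval ran from -0.20 to 0.25. These FLRT genes overlapped almost completely between the labels, unlike *Flrt2*. *Tenm4* (chromosome 7, 103319754 to 104059603, plus strand) had 97.6, 109 and 157 CPM against 97.6, 114 and 161 CPM, and an interval of -0.27 to 0.31.

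*Adgrl2* (chromosome 3, 148478550 to 148652280, minus strand), encoding latrophilin-2, was the most variable member. Its lowest, median and highest values were 41.7, 60.4 and 88.2 CPM in *Gadd45a*-WT and 33.1, 46.5 and 87.7 CPM in *Gadd45a*-KO. The estimate of -0.27 was close in size to those of the 4 genes lower at 5% FDR, but its interval, -0.72 to 0.19, was the widest of the 10 (adjusted p = 0.675, edgeR). Without the libraries with high thalamic markers the estimate was -0.06.

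Ratios between members of a family compare paralogs within a library and need no scaling between libraries. All 12 log2 ratios within the families were compared by two-sided exact permutation tests over the libraries, with 0.5 added to each count and Benjamini-Hochberg adjustment over the 12. The log2 ratio of *Flrt2* to *Flrt3* was 0.76 ± 0.21 in *Gadd45a*-WT and 0.41 ± 0.14 in *Gadd45a*-KO (SD, n = 6 each; difference -0.36, exact p = 0.00433, adjusted p = 0.0390), lower than the *Gadd45a*-WT mean in 6 of 6 *Gadd45a*-KO libraries. That of *Tenm2* to *Tenm3* was 0.92 ± 0.14 and 1.23 ± 0.11 (difference 0.31, exact p = 0.00649, adjusted p = 0.0390), higher in 6 of 6. These 2 of the 12 ratios passed 0.05 after adjustment, and their ranges still overlapped between the labels.

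*Adgrl1* to *Adgrl3* differed by 0.29 in the log2 ratio (exact permutation p = 0.0195, adjusted p = 0.0584) and *Tenm1* to *Tenm2* by -0.20 (exact permutation p = 0.0195, adjusted p = 0.0584), each in the same direction in 6 of 6 libraries. Both missed the threshold after adjustment. The other 8 ratios had adjusted p from 0.0987 to 0.989. Without the libraries with high thalamic markers the *Flrt2* to *Flrt3* difference was -0.32 and the *Tenm2* to *Tenm3* difference 0.27, with an adjusted p of 0.143 for each (exact permutation test, smallest possible unadjusted p 0.00952). Leaving out any 1 library other than *Gadd45a*-WT replicate 1 or 5 gave differences of -0.40 to -0.30 and 0.28 to 0.34 with adjusted p from 0.0519 to 0.0779 (exact permutation test). With 5 against 6 libraries the smallest unadjusted exact p is 0.00433, which did not by itself force the loss. Without *Gadd45a*-WT replicate 1 the adjusted p was 0.0260 for *Flrt2* to *Flrt3* and 0.0346 for *Tenm2* to *Tenm3*, and without replicate 5 it was 0.0346 for each (exact permutation test).

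Apart from the labels, some members varied with markers of hippocampal regions or of other cell types. For each gene and each of 13 marker lists, the deviation of log2 CPM from its label's mean was correlated over the 12 libraries, giving 130 values that are a description only, since the points share library and depth. Their median was 0.00, and 4 were above 0.7 and 5 below -0.7. The highest was that of *Adgrl2* with the CA1 markers (r = 0.89 over 12 libraries, 0.98 in *Gadd45a*-WT and 0.89 in *Gadd45a*-KO, and 0.82 without the 2 libraries farthest from the median of the marker sum). *Gadd45a*-KO replicate 4 had the highest CA1 sum, 823 CPM, and 87.7 CPM of *Adgrl2*, while *Gadd45a*-KO replicates 2 and 3 had CA1 sums of 381 and 360 CPM and *Adgrl2* at 33.1 and 39.5 CPM.

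*Tenm4* ran opposite to the dentate gyrus markers (r = -0.87, and -0.76 without the 2 farthest libraries). In *Gadd45a*-KO replicate 4 the dentate sum was lowest, 349 CPM, and *Tenm4* was highest, 161 CPM. *Gadd45a*-WT replicate 6 had the highest dentate sum, 753 CPM, with 98.4 CPM of *Tenm4*.

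**Figure D4:**
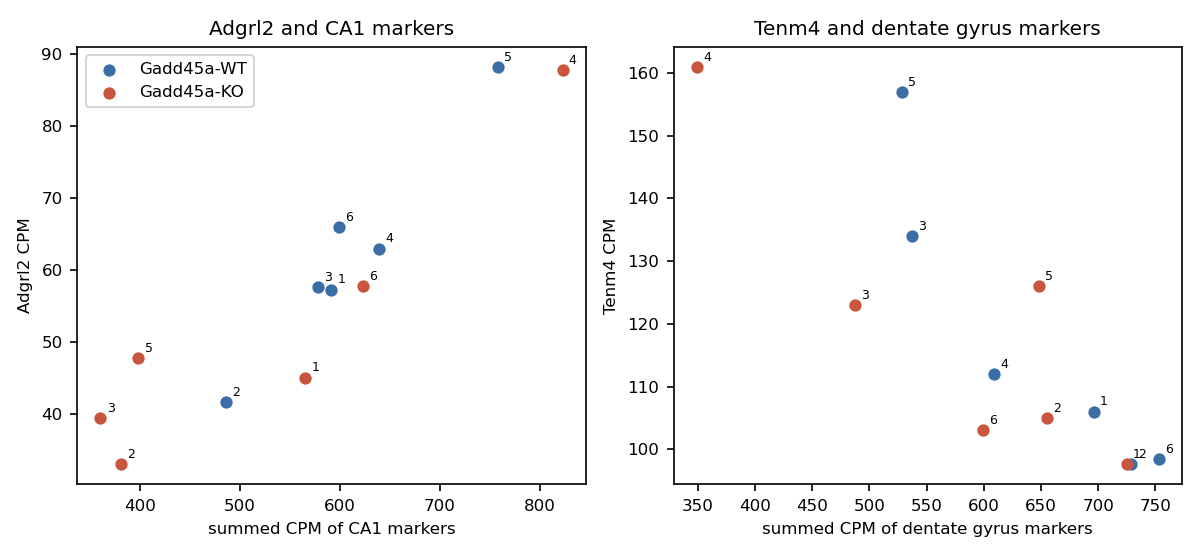
CPM of *Adgrl2* against the summed CPM of CA1 markers, and of *Tenm4* against that of dentate gyrus markers; every point is a library, numbered by replicate and coloured by label. *Adgrl2* is near 88 CPM where the CA1 sum is highest, and *Tenm4* is at 161 CPM where the dentate sum is lowest.

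*Tenm2* also followed the CA1 markers (r = 0.80), but only 0.49 was left without the 2 farthest libraries. *Tenm1* ran opposite to the CA3 markers (r = -0.83) and along with those of astrocytes (r = 0.76), and *Flrt3* opposite to microglial markers (r = -0.73). *Tenm3* followed the interneuron markers (r = 0.74). *Adgrl1* had no coefficient beyond 0.51 in size with any of the 13 lists.

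The thalamic markers, which were high in *Gadd45a*-KO replicates 2 and 3, correlated negatively with *Tenm2* (r = -0.73), *Tenm3* (r = -0.70), *Adgrl2* (r = -0.69) and *Adgrl3* (r = -0.68), and less with *Flrt2* (r = -0.25) and *Tenm1* (r = -0.35). Without the 2 libraries farthest from the median of this sum the first 4 coefficients were -0.56, -0.44, -0.68 and -0.52, and within *Gadd45a*-WT they were -0.50, -0.09, -0.78 and -0.34. The oligodendrocyte sum was 6126 CPM in *Gadd45a*-KO replicate 3 and 1986 to 3115 CPM in the other 11 libraries, and *Tenm2* had its lowest value, 146 CPM, in that library. *Tenm2* ran opposite to the oligodendrocyte sum (r = -0.74, -0.75 without the 2 libraries farthest from its median, and -0.69 within *Gadd45a*-WT). The part of tissue composition in these values was not tested beyond the fits given above.

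**Figure D5:**
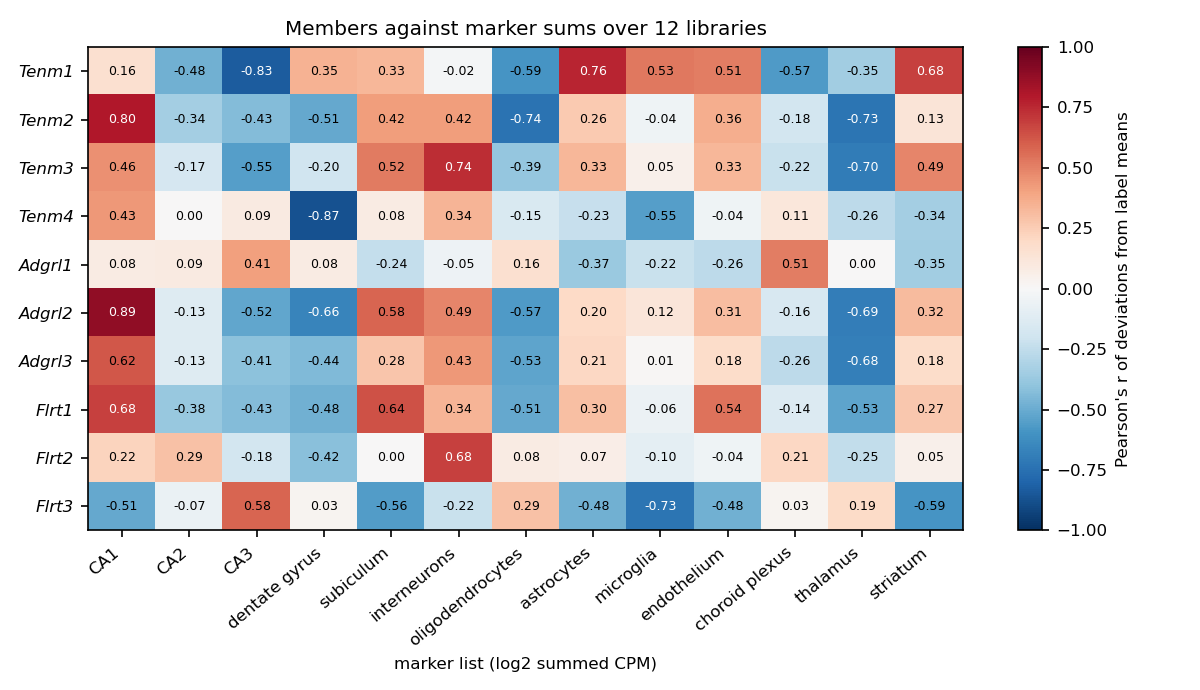
Pearson's r between the deviation of each gene's log2 CPM from its label's mean and that of the summed CPM of 13 marker lists, over 12 libraries. The extremes are 0.89 for *Adgrl2* with CA1 and -0.87 for *Tenm4* with the dentate gyrus.

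Among the members themselves, the 45 pairwise coefficients had a median of 0.21 and ran from -0.68 (*Tenm1* with *Adgrl1*) to 0.86 (*Tenm2* with *Flrt1*). *Tenm2*, *Adgrl2* and *Flrt1*, a gene from each family, varied most closely together, with 0.82 for *Tenm2* and *Adgrl2* and 0.81 for *Adgrl2* and *Flrt1*. Each of these genes was highest of its label in *Gadd45a*-KO replicate 4 and *Gadd45a*-WT replicate 5, which also had the highest CA1 sums, 823 and 758 CPM. Coefficients between members without these libraries were not computed. The median was 0.12 within families and 0.27 between them. Of the 4 genes lower at 5% FDR, *Tenm3* varied with *Flrt2* (r = 0.70) and with *Adgrl3* (r = 0.68), all within labels.

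The partners of these proteins outside and inside the cell were read as a list of 14 genes (among them UNC5 netrin receptors, SHANK scaffolds, *Cntn6*, *Dag1*, *Fgfr1* and *Robo1*). By edgeR at 1% FDR 0 of 14 were lower and 0 higher, and DESeq2 likewise called 0. At an unadjusted p under 0.05, 3 of 14 were lower and 1 higher, against 9.35% and 4.34% of all genes, and the median log2 fold change was -0.01. Abundant genes of the list were the postsynaptic scaffold gene *Shank1*, with 452 CPM in *Gadd45a*-WT and 428 CPM in *Gadd45a*-KO on average, and *Nrxn3*, encoding a presynaptic receptor, with 292 and 284 CPM. The genes under 0.05, singled out after their values were seen, included the FLRT-binding receptors *Unc5c* (log2 fold change -0.22, adjusted p = 0.134, edgeR) and *Unc5d* (-0.28, adjusted p = 0.147, edgeR), and in the other direction *Unc5b* (0.38, adjusted p = 0.249, edgeR). *Unc5c* passed 1% FDR with a surrogate variable (-0.33, adjusted p = 0.00255) and with the marker sums as covariates (-0.37, adjusted p = 0.00257, both edgeR).

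Other neuronal adhesion genes with leucine-rich repeats, 25 in number, gave 0 calls in either direction at 1% FDR with both edgeR and DESeq2, and at an unadjusted p under 0.05 edgeR gave 3 of 25 lower and 0 higher, against 9.35% and 4.34% of all genes. Their median log2 fold change was -0.06, with 22 of 25 estimates below 0, against 7905 of the 16399 genes tested. *Lrrn2* averaged 231 CPM in *Gadd45a*-WT and 233 CPM in *Gadd45a*-KO, *Lingo1* 190 and 193 CPM, and *Elfn2*, a synaptic organizer, 134 and 127 CPM. The 3 genes under 0.05, again chosen on their values, were the synaptic organizers *Lrrtm2*, *Lrfn5* and *Slitrk4*, with log2 fold changes of -0.11, -0.08 and -0.17.

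Of 17 other adhesion G protein-coupled receptors, edgeR and DESeq2 called 0 at 1% FDR, and at an unadjusted p under 0.05 edgeR gave 0 lower and 2 of 17 higher, against the same shares of all genes. Their median log2 fold change was 0.04. The brain-enriched receptors *Adgrb2* (618 and 578 CPM) and *Adgrb1* (350 and 337 CPM) and the planar polarity cadherin *Celsr2* (318 and 319 CPM) were the most abundant. The 2 genes under 0.05, again chosen on their values, were *Adgre5* (log2 fold change 0.16, adjusted p = 0.0604, edgeR) and *Adgrg6* (0.41, adjusted p = 0.245, edgeR). *Adgre5*, known from leukocytes, was the 1 gene of the 17 with every *Gadd45a*-KO library, 12.4 to 12.9 CPM, above every *Gadd45a*-WT library, 10.7 to 12.1 CPM. Such a separation with *Gadd45a*-KO higher held for 0.183% of all genes.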

How the data were processed

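Read counts of hippocampal poly(A) RNA from 12 mice were analysed, grouped and numbered by the sample labels. The authors aligned the reads with TopHat 1.4.1 to NCBIM37/mm9 and deposited whole read counts for each Ensembl gene from HTSeq 0.5.4p3, with the strand taken into account, without normalization or pooling. Multi-mapped reads, reads on no gene and ambiguous reads, which fit more than 1 gene, are left out of the gene counts. As the counting was stranded, antisense genes overlapping *Tenm1*, *Tenm4*, *Adgrl1* and *Adgrl3* were counted apart.

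Symbols, coordinates and lengths came from a GENCODE annotation of the same build, an earlier release than that of the authors, and 37205 of 37991 gene IDs matched. Counts were filtered and TMM-scaled in edgeR 4.0.16 (R 4.3.3) and tested for quasi-likelihood differences between the labels, with no covariate, at 1% FDR with Benjamini-Hochberg adjustment over all genes tested. SE was obtained by dividing the log2 fold change by the root of the F statistic. Log2 CPM used a prior count of 2. Alternatives were DESeq2 1.42.0, RLE size factors, no filter, 5% FDR, at least 10 reads in every library, a block for the replicate number, an offset for exon length (spline with 5 degrees of freedom) with and without the block, 1 surrogate variable (sva 3.50.0), and leaving out each library. Leaving out *Gadd45a*-KO replicates 2 and 3 together, and the marker covariates, were chosen after seeing the data. Permutation tests used scipy 1.17.1, and the smallest two-sided exact p with 6 libraries per label is 0.00216. Scripts were tested on simulated data.

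The members and lists were chosen with earlier results of these data known. Genes named are all members, *Gadd45a* and *E230016M11Rik*, genes of each list at 1% FDR and its 3 most abundant others, except 1 gene of the partner list that is not reported here. As no list gene passed 1% FDR, genes with an unadjusted p under 0.05 were also named, chosen after their values were seen. Pairs of libraries of 1 label differed by more than counting error (chi-square per degree of freedom 9.12 to 40.6 over 30 pairs). Promoters came from RefSeq on GRCm38.p6, and transcript sequences from the GENCODE annotation. Reads along transcripts were not analysed here.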

Additional observations from a re-analysis of the deposited data

Results flagged for a closer look

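Of 50 sets of 6 libraries examined (the members, the label checks and 13 marker sums, under each label), 2 held a library far from the other 5, where chance gives about 1 in 20. The summed oligodendrocyte markers were 6126 CPM in *Gadd45a*-KO replicate 3 against 2565 to 3115 CPM in the other *Gadd45a*-KO libraries. *E230016M11Rik* was 3.88 CPM in *Gadd45a*-WT replicate 6 against 3.27 to 3.47 CPM in the other *Gadd45a*-WT libraries. None of the 10 members had such a library.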

How the results depend on the processing

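The number of members lower at 1% FDR was 0 in the edgeR fit (430 of all 16399 genes) and 4 with DESeq2 (661 of 17540). At 5% FDR it was 4 (726 of 16399). With the replicate block it was 2 (*Tenm1*, adjusted p = 0.00482, and *Flrt2*, 0.00499, edgeR), against 509 of all 16399 genes. Without a filter it was 1 (*Tenm3*, 0.00912, edgeR), against 421 of 25857. On leaving out a library it was 0 to 2, against 239 to 467 of all genes. *Tenm3* passed without *Gadd45a*-WT replicate 1 (0.00719), *Gadd45a*-KO replicate 4 (0.00941) or replicate 5 (0.00788), and *Flrt2* without *Gadd45a*-WT replicate 1. At 5% FDR *Tenm3* and *Flrt2* were lower without any 1 of the 12 libraries, *Tenm1* without 6 of them and *Adgrl3* without 7. No member was higher at 1% FDR under any alternative. The partner list gave 1 lower gene, *Unc5c*, with the replicate block and 1 with a surrogate variable, against 0. With 1 surrogate variable none of the 4 was lower at 5% FDR. Of the paralog ratios 2 passed, 0 with the replicate block (differences of -0.36 for *Flrt2* to *Flrt3* and 0.31 for *Tenm2* to *Tenm3*, as without it; the smallest exact p with 6 pairs is 0.0312, so this says nothing about stability), 0 without *Gadd45a*-KO replicates 2 and 3, and 0 to 3 on leaving out a library. They were 3 without *Gadd45a*-WT replicate 1 or 5, and 0 without any 1 of the other 10. The calls of *Gadd45a* did not change.

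Equal replicate numbers were not taken as pairs, as no source states pairing and the correlation of deviations exceeded 0.1 in 5 of 6 pairs but was -0.0761 for replicate 6, and 4 of 12 libraries correlated best with their own number. Over all genes, 430 of 16399 were lower and 4 higher, against 661 and 19 of 17540 with DESeq2 and 272 and 9 of 16365 with the length offset. A surrogate variable gave 265 and 2 of 16399, and the marker covariates 226 and 2 of 16399. Without *Gadd45a*-KO replicates 2 and 3 the counts were 199 and 3 of 16559. With 405 to 685 reads per library, *Flrt1* is the member whose counts limit precision most.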
